A study of Mus musculus with 2 samples.

Results

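The genes described here run actin filament turnover, the cycle in which actin subunits leave old filament ends, are recharged with ATP and join new ends. They were taken as the 9 genes Cap1, Cap2, Cfl1, Cfl2, Dstn, Pfn1, Pfn2, Gsn and Tmsb4x, of 18193 genes with a named probe set, and all 21 of their probe sets were read from the deposited table. A probe set is a group of short oligonucleotides on the array that together report on 1 transcript. The set was chosen by the ratio of Cap1 between these arrays, which was already known to be large, and by the place of its gene near Foxj3, so the values of Cap1 are a description. The other members were added for their role in the same cycle. The cells were mouse skeletal myoblasts, which divide in culture and can fuse into muscle fibres. The Foxj3 KO group was 1 culture of Foxj3 knockout myoblasts, and the WT group was 1 culture of Foxj3 wild-type myoblasts. Foxj3 encodes a forkhead transcription factor. Both cultures were at passage 3, grew in medium with 20% fetal bovine serum and were harvested at 80% confluency, and RNA of each was hybridised to 1 Affymetrix array. Which part of Foxj3 the knockout removes, the age and strain of the animals, and how many animals each culture came from are not given in the sources used here.

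Cofilins sever aged filaments, and cyclase-associated proteins (CAP1 and CAP2) help to remove subunits at the pointed end of the filament and to exchange their ADP for ATP. Profilin then delivers the recharged subunits to growing ends, thymosin beta 4 holds a reserve of free subunits, and gelsolin severs and caps filaments when calcium is high. Several of these proteins exist as a broadly expressed form and a form enriched in striated muscle: CAP2 and cofilin 2 are the muscle-enriched forms, CAP1 and cofilin 1 the broad ones.

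The arrays had medians of 63.94 (Foxj3 KO) and 62.03 (WT) in signal intensity. A detection floor was set at the 40th percentile of all values, 47.04, and 14597 genes were over it on at least 1 array. Foxj3 itself read 77.28 on the Foxj3 KO array and 495.51 on the WT array at its brightest probe set, 1435362_at (log2 ratio -2.68). At 1438220_at it read 99.40 (Foxj3 KO) and 79.74 (WT), and 1459055_at did not reach the floor on either array, so its probe sets do not settle the label. All 10 myoblast markers were over the floor on both arrays, and their summed signal was 9802 (Foxj3 KO) and 9705 (WT). Their median log2 ratio was 0.01, with 5 above 0 and 5 below. Myod1, the 1 myoblast marker past 2-fold, read 1751 (Foxj3 KO) and 631 (WT), while Des read 1091 (Foxj3 KO) and 2024 (WT). The 14 markers of differentiated muscle summed to 7150 (Foxj3 KO) and 35473 (WT), and 13 of them were at least 2-fold lower on the Foxj3 KO array. Of 7 macrophage and leukocyte markers 3 (Foxj3 KO) and 4 (WT) were over the floor, with summed signals of 674 (Foxj3 KO) and 773 (WT). Csf1r read 276 (Foxj3 KO) and 171 (WT) and Adgre1 210 (Foxj3 KO) and 313 (WT), while Ptprc, Cd68 and Itgam stayed below it. Spi1 read 62.02 (Foxj3 KO) and 123.04 (WT), and Cd14 35.99 (Foxj3 KO) and 83.23 (WT). Of the 4 measured leukocyte markers, 1 had a log2 ratio above 0 and 3 below, with a median of -0.70. Of 5 endothelial markers 3 (Foxj3 KO) and 1 (WT) were over the floor, summing to 318 (Foxj3 KO) and 248 (WT). Esam read 94.66 (Foxj3 KO) and 45.06 (WT), at least 2.01-fold higher, and Cdh5 63.12 (Foxj3 KO) and 28.30 (WT). Kdr read 101 (Foxj3 KO) and 110 (WT), and Pecam1 and Tek were below the floor on both arrays. Fibroblast markers over the floor numbered 5 (Foxj3 KO) and 3 (WT) of 7 with a probe set, summing to 1165 (Foxj3 KO) and 989 (WT). Among the 5 measured, 4 had log2 ratios above 0 and 1 below, with 0 past 2-fold. Smooth muscle and pericyte markers over the floor numbered 4 of 7 on each array, summing to 7024 (Foxj3 KO) and 7154 (WT). Tagln read 1749 (Foxj3 KO) and 626 (WT), and Myh11 84.77 (Foxj3 KO) and 337.84 (WT). The part of other cell types in the results was not tested. In RNA of a whole culture, fewer cells of a type and less RNA per cell cannot be told apart. With 1 array in each group there is no spread between cultures to set a difference against, no test was possible, and genes were counted by whether their ratio passed 2-fold.

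Cap1 was the member with the largest difference. Its brighter probe set, 1417461_at, read 848.80 on the Foxj3 KO array and 63.30 on the WT array, which is 13.4-fold higher (log2 ratio 3.75). The other, 1417462_at, read 498.71 on the Foxj3 KO array and 5.50 on the WT array. The WT value is far under the floor, so the ratio is a bound, at least 10.6-fold higher. Against all 45037 probe sets of the same array, 1417461_at stood at percentile 96.7 of the Foxj3 KO array and at percentile 50.6 of the WT array. The percentiles of 1417462_at were 93.7 (Foxj3 KO) and 3.01 (WT). On the WT array, then, a gene that most cell types express was close to the floor at 1 probe set and among the dimmest signals at the other, while on the Foxj3 KO array both were bright.

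**Figure D1:**
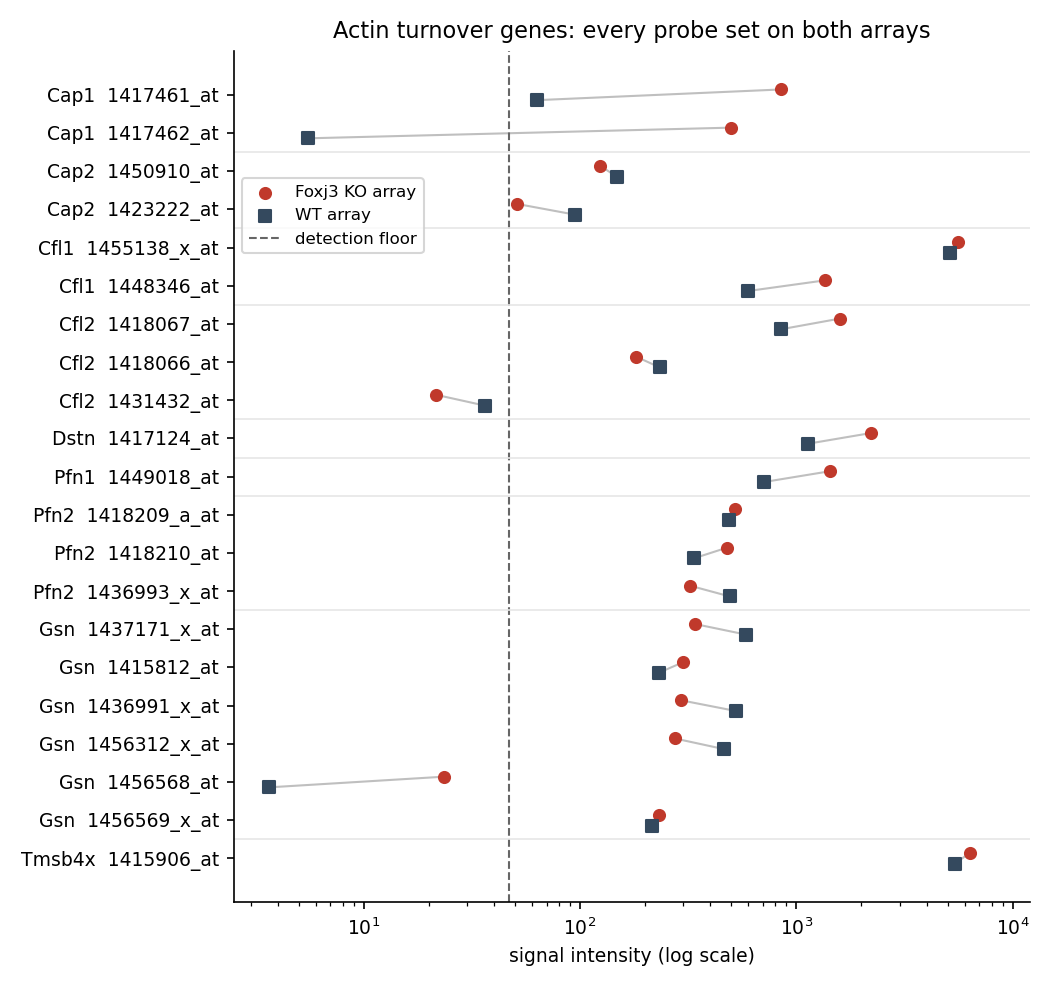
Signal intensity (log axis) of each of the 21 probe sets of the 9 genes on the Foxj3 KO array (circles) and the WT array (squares), 1 array each. The dashed line is the detection floor of 47.04. Both Cap1 probe sets lie far apart on the arrays, while most others lie within 2-fold.

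The probe sets of Cap1 are both listed under the same RefSeq mRNA, so they share a source sequence. Of 6251 genes with at least 2 measured probe sets, 17 (0.272%) had all of them at least 2-fold higher on the Foxj3 KO array, Cap1 among them, and 24 (0.384%) had all of them at least 2-fold lower. Cap1 was the only gene of the 6251 with all measured probe sets at least 8-fold higher. This limit was set with the ratio of Cap1 known, and Cap1 was chosen for that ratio, so its place in these counts is a description. Probe sets of 1 gene otherwise varied widely: the SD of the log2 ratio per probe set within a gene was 0.66, taken over the 4752 genes with at least 2 probe sets above the floor on each array. Very low WT values beside bright Foxj3 KO values were rare on these arrays and all ran the same way. A WT value under 11.76 (the floor divided by 4) with a Foxj3 KO value over 376.32 (8 times the floor) was found at 8 of 25057 measured probe sets, 1417462_at among them, and the reverse at 0. These limits were chosen after the values were seen. The other 7 belonged to Abhd17b, Camk2b, Ctnnb1, Disp2, Exosc6, Serinc3 and Spata2l. The part of such very low WT readings in the ratio of Cap1 was not tested. With the floor at the 60th percentile, 86.42, both WT readings of Cap1 were under it. Its log2 ratio was then a bound, 3.30 or higher.

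**Figure D2:**
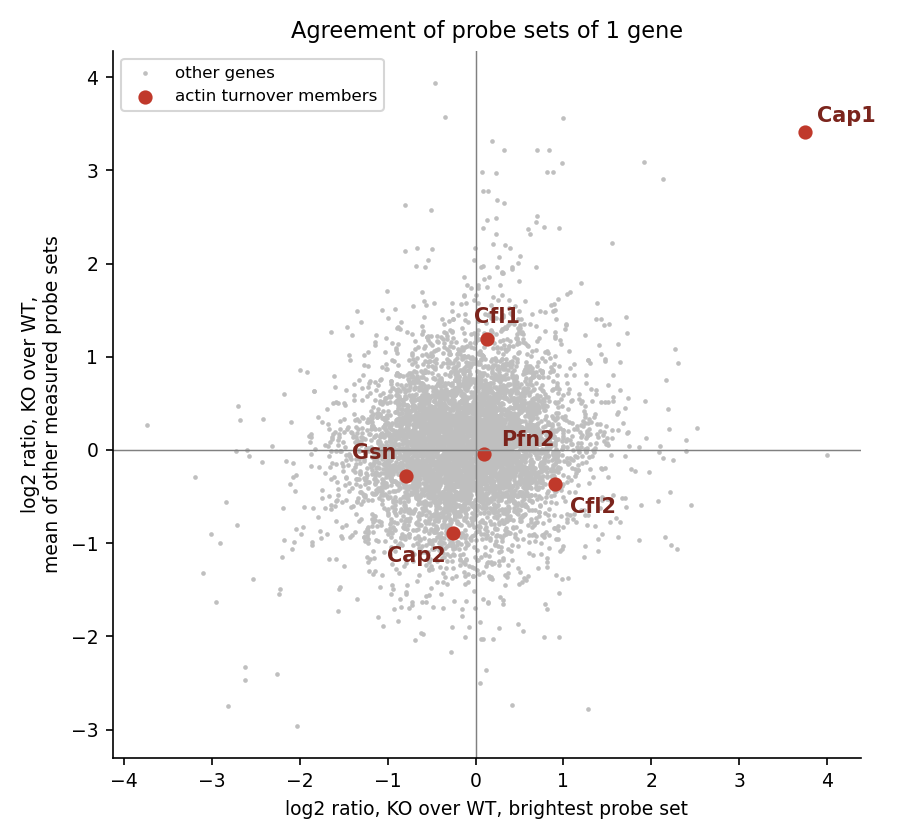
Log2 ratio (Foxj3 KO over WT) of the brightest probe set of each gene (horizontal axis) against the mean of its other measured probe sets (vertical axis), 1 point per gene for the 6251 genes with at least 2. The 6 members with at least 2 measured probe sets are named; Cap1 lies alone at the upper right, with its vertical value a bound, and the rest lie in the main cloud.

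Cap2, the muscle-enriched partner, did not share the difference of Cap1. It read 123.85 on the Foxj3 KO array and 147.43 on the WT array at 1450910_at (log2 ratio -0.25). At 1423222_at the values were 51.32 (Foxj3 KO) and 94.90 (WT), a log2 ratio of -0.89. Both probe sets, listed under the same expressed sequence tag, were therefore lower on the Foxj3 KO array and under 2-fold.

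The promoters of these partners are shown because the genes encode related proteins and read so differently on the arrays. The 250 bases before the transcription start are given 5′ to 3′ on the gene's strand, from RefSeq (GRCm38.p6). All 9 members had at least 1 promoter window in that source. Cap1 lies on the minus strand at chr4:122886077-122886326 and Cap2 on the plus strand at chr13:46501653-46501902. Capitals mark matches to AAACA, the 5-letter core of forkhead sites, to CCAAT, and to the GC box GGGCGG, on either strand.
Cap1: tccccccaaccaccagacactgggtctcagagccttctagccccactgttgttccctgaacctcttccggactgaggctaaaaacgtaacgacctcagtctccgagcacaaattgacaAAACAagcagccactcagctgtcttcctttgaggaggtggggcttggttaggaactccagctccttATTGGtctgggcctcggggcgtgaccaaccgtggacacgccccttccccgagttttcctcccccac
Cap2: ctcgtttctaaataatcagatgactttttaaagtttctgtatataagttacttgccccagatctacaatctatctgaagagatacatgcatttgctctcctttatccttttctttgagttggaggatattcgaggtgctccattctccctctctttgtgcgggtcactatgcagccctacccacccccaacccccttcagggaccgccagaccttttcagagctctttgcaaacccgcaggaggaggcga

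The Cap1 window held 1 AAACA, 132 to 128 bases before the start, and 1 reversed CCAAT box 66 to 62 bases before it, and the Cap2 window held none of the motifs searched. Of 32851 promoter windows of the same length, 46.4% held AAACA, 33.8% CCAAT and 32.7% GGGCGG. The longer forkhead core TAAACA, which contains AAACA, was in 12% of all windows, the TATA box TATAAA in 12.4%, the CArG box of serum response factor in 1.47% and the MEF2 site in 2.92%. None of these 4 was found in the windows of the 9 members. A match is a description of the letters only, and a missing match says no more than that they are not in this window.

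Cofilins sever filaments, and their members read differently by probe set. Cfl2, the muscle cofilin, read 1595.99 on the Foxj3 KO array and 852.48 on the WT array at 1418067_at, 1.87-fold higher (log2 ratio 0.90). At 1418066_at it read 181.71 (Foxj3 KO) and 233.56 (WT), a log2 ratio of -0.36, and 1431432_at stayed below the floor at 21.67 (Foxj3 KO) and 36.25 (WT). The measured probe sets of Cfl2 thus had opposite signs, and the bright one was just under 2-fold. Cfl2 was not among the lower genes with the markers of differentiated muscle, of which 13 of 14 were at least 2-fold lower. Its promoter on the minus strand, chr12:54862878-54863127, is shown in the same way because Cfl2 is the muscle form.
Cfl2: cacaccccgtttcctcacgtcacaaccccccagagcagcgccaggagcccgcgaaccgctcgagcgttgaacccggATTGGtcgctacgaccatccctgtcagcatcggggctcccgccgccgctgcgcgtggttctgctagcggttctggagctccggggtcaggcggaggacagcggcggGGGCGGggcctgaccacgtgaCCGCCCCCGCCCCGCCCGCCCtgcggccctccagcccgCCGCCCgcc

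This window was 74.4% G or C, against 57.2% for Cap1, 46.4% for Cap2 and a median of 52.4% over all windows. It held 6 GC boxes, some of them overlapping, and 1 reversed CCAAT box.

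Cfl1, the broadly expressed cofilin, read 5616.50 on the Foxj3 KO array and 5141.10 on the WT array at its brightest probe set, 1455138_x_at (log2 ratio 0.13). The suffix _x_at marks a probe set whose probes may also bind other transcripts. At 1448346_at, listed under the RefSeq mRNA, Cfl1 read 1357.41 (Foxj3 KO) and 596.96 (WT), 2.27-fold higher. Both probe sets were above 0, and whether Cfl1 counts as 2-fold higher depended on which was read. Dstn encodes destrin, also called ADF, the third member of the cofilin family. Its single probe set, 1417124_at, read 2209.66 on the Foxj3 KO array and 1129.02 on the WT array, 1.96-fold higher (log2 ratio 0.97), and no other probe set could check it.

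The profilins and thymosin beta 4 bind free actin. Pfn1, the broadly expressed profilin, read 1427.78 on the Foxj3 KO array and 712.41 on the WT array at its only probe set, 1449018_at, a log2 ratio of 1.003, on the 2-fold line. Pfn2, a profilin best known from neurons, read 522.65 (Foxj3 KO) and 487.89 (WT) at 1418209_a_at, a log2 ratio of 0.10. Its other probe sets had opposite signs. At 1418210_at the values were 478.68 (Foxj3 KO) and 336.38 (WT), and at 1436993_x_at they were 323.43 (Foxj3 KO) and 492.57 (WT). Pfn2 therefore showed no common direction. Tmsb4x, which encodes thymosin beta 4, read 6322.14 on the Foxj3 KO array and 5403.79 on the WT array at 1415906_at (log2 ratio 0.23), a small difference at a bright probe set.

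Gsn, which encodes gelsolin, was lower at its brightest probe set and had the most probe sets of any member. The brightest, 1437171_x_at, read 338.64 on the Foxj3 KO array and 587.05 on the WT array, 1.73-fold lower (log2 ratio -0.79). The probe sets 1436991_x_at, at 293.41 (Foxj3 KO) and 525.13 (WT), and 1456312_x_at, at 274.63 (Foxj3 KO) and 464.50 (WT), had log2 ratios of -0.84 and -0.76. These 3 lay close together, and all carry the _x_at suffix. The probe set listed under the RefSeq mRNA, 1415812_at, read 299.95 (Foxj3 KO) and 230.90 (WT), with a log2 ratio of 0.38. At 1456569_x_at the values were 232.22 (Foxj3 KO) and 215.08 (WT), and 1456568_at gave 23.54 (Foxj3 KO) and 3.64 (WT), below the floor. The direction of Gsn thus depended on the probe set. On these arrays probe sets ending in _s_at or _x_at were lower in general: over 3074 measured ones the median log2 ratio was -0.21, against 0.01 over the other 21983. The part of this shift in the Gsn values was not tested.

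By their brightest probe sets, Cap1 and Pfn1 passed 2-fold in the higher direction, 2 of the 9 members, beside 3.73% of all measured genes. None of the 9 was at least 2-fold lower, beside 6.72% of all measured genes. The order of the log2 ratios from the highest was Cap1, Pfn1, Dstn, Cfl2, Tmsb4x, Cfl1, Pfn2, Cap2 and Gsn. Between neighbours in this order the gap was 2.74 from Cap1 to Pfn1 and 0.68 from Cfl2 to Tmsb4x, and at most 0.54 elsewhere. The SD of 0.66 within a gene is that of 1 probe set, and a gap is a difference of 2, which varies more. The measured probe sets of Cfl2 alone read 0.90 and -0.36. Below Cap1 the order is therefore not a firm ranking. The log2 ratios of Pfn1, Dstn and Cfl2, from 0.90 to 1.003, were higher than those of 94.8% to 96.3% of measured genes. The median over the 9 was 0.23, against -0.06 over all 14597 measured genes. At the level of probe sets, 4 of the 19 measured were at least 2-fold higher, both of Cap1, 1 of Cfl1 and 1 of Pfn1, beside 5.62% of all measured probe sets, and 0 were at least 2-fold lower, beside 6.67%. The 9 probe sets of members that are listed under a RefSeq mRNA were all above 0, with a median log2 ratio of 0.97. Over all 4439 such probe sets 51.5% were above 0, with a median of 0.02, and this grouping was chosen after the values were seen. It covers 7 of the 9 members and holds no probe set of Cap2 or Cfl2. All 7 member probe sets with log2 ratios below 0 fall outside it. Since Cap1 was picked for its value, no count here is support for a common shift.

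The actin genes, whose products these proteins act on, did not read alike. The 4 given here were chosen after their values were seen. Actb, cytoplasmic beta-actin, read 9663 on the Foxj3 KO array and 3870 on the WT array at 1436722_a_at, and 1545 (Foxj3 KO) and 1070 (WT) at 1419734_at. Actg1, cytoplasmic gamma-actin, was close on both at 8461 (Foxj3 KO) and 7544 (WT). The skeletal muscle actin gene Acta1 read 2188 (Foxj3 KO) and 7809 (WT), and the cardiac muscle actin gene Actc1 1005 (Foxj3 KO) and 4191 (WT).

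Among 86 other genes of actin turnover, 79 had a named probe set and 70 were measured. On the Foxj3 KO array 4 of these 70 (5.71%) were higher by 2-fold or more, beside 3.73% of all measured genes, and 8 (11.4%) were lower by as much, beside 6.72%. The median log2 ratio was -0.02, and 35 lay above 0 and 35 below.

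Over the 17 measured regulators and partners of cofilin the median log2 ratio was 0.29. Wdr1, which encodes the AIP1 protein that speeds disassembly of cofilin-bound filaments, read 1235.62 on the Foxj3 KO array and 590.00 on the WT array, 2.09-fold higher, and its other 2 probe sets had log2 ratios of 0.67 and -0.06. Coro1b, a coronin of the cell edge, read 977.35 (Foxj3 KO) and 426.99 (WT), 2.29-fold higher at its only probe set. Twf2, a twinfilin that binds actin monomers and caps filaments, read 186.76 (Foxj3 KO) and 846.99 (WT), 4.54-fold lower. At its second probe set, under the floor on the Foxj3 KO array, the log2 ratio was a bound, -0.96 or lower. Coro7 was 2.38-fold lower, at 106.07 (Foxj3 KO) and 252.53 (WT), but 4 of its 5 other measured probe sets were above 0. The 2 directions were thus equally common in this group at the 2-fold line. However, Twf2 and Coro7 were read at _x_at probe sets, which were lower in general on these arrays, and Wdr1 and Coro1b were not. No other measured probe set of Twf2 or Coro7 was 2-fold lower as read here. The part of the _x_at shift in these values was not tested.

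The genes of capping and severing had a median of 0.11 over 15 measured. Add3, an adducin that caps filaments at the membrane skeleton, read 437.53 on the Foxj3 KO array and 175.75 on the WT array, 2.49-fold higher at an _x_at probe set, while its 3 other probe sets had log2 ratios of 0.49, 0.56 and at least 0.89, so that without the _x_at probe set none reached the 2-fold threshold as read here. Tmod1, which caps the pointed ends of thin filaments in muscle sarcomeres, was under the floor on the Foxj3 KO array at 42.18 and read 144.53 on the WT array, at least 3.07-fold lower. Among 4 measured genes of the monomer-binding group, Wipf2, a partner of the WASP proteins, was 2.05-fold lower, at 150.11 (Foxj3 KO) and 307.34 (WT).

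The genes of nucleation and elongation had a median of -0.08 over 34 measured. Vasp, which speeds growth at filament ends, read 1028.84 on the Foxj3 KO array and 360.84 on the WT array, 2.85-fold higher at its only probe set. Lmod3 and Lmod2, the leiomodins that nucleate and lengthen thin filaments of striated muscle, were under the floor on the Foxj3 KO array. Lmod3 read 36.61 (Foxj3 KO) and 425.70 (WT), at least 9.05-fold lower, and Lmod2 29.66 (Foxj3 KO) and 209.93 (WT), at least 4.46-fold lower. Cobl, a nucleator known from neurons, read 41.58 (Foxj3 KO) and 306.08 (WT), at least 6.51-fold lower, while the log2 ratio at its second probe set was 0.47. The remaining gene past 2-fold, Wasl, which activates the Arp2/3 complex and is named after its value was seen, read 270.99 (Foxj3 KO) and 564.90 (WT), but at 2 of 3 further probe sets its ratio was above 0. Tmod1, Lmod2 and Lmod3 are sarcomere genes, named because they passed 2-fold. Others of the list known from muscle did not: Tmod4 was under the floor on both arrays. Fhod3 had a log2 ratio of -0.24. Coro6 had -0.32, with at least 0.53 at its second probe set. The markers of differentiated muscle, with a median log2 ratio of -2.95 over 14, were lower beside Tmod1, Lmod2 and Lmod3. The part of the muscle genes in these 3 values was not tested.

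**Figure D3:**
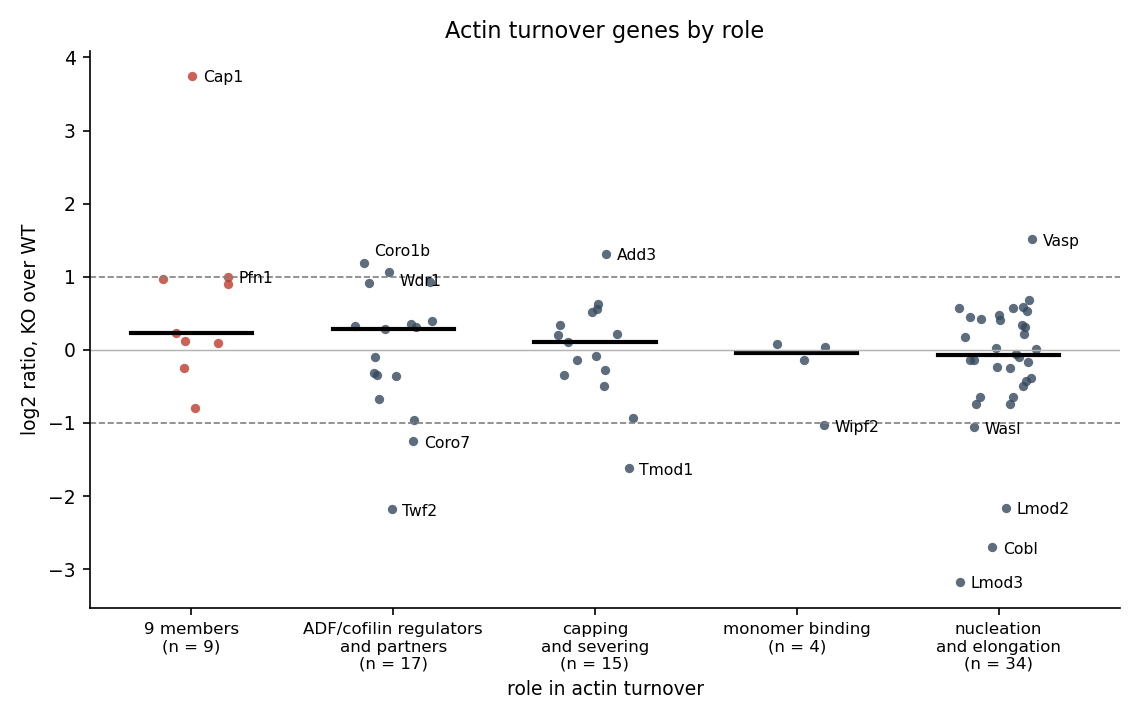
Log2 ratio (Foxj3 KO over WT) of the 9 members and of 70 other measured actin turnover genes by role, 1 point per gene by its brightest probe set, with the horizontal spread of points arbitrary. Bars are medians, dashed lines mark 2-fold, and genes past 2-fold are named. Ratios of genes under the floor on 1 array are bounds. These are Lmod2, Lmod3, Cobl and Tmod1, and, not named in the figure, Coro2b, Avil, Wasf3, Fhod1 and Fmn1.

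Cap1 and Foxj3 both lie on mouse chromosome 4, with 27 protein-coding genes between them in the RefSeq gene order (GRCm38.p6). The 14 measured genes between them and 10 measured genes beyond each were therefore read beside Cap1. On the Foxj3 KO array 2 of these 34 measured genes were higher by 2-fold or more (5.88%, beside 3.73% of all measured genes) and 0 were lower by as much (beside 6.72%), with a median log2 ratio of 0.05. Col9a2, a collagen IX chain gene between Foxj3 and Cap1, read 921.34 on the Foxj3 KO array and 278.86 on the WT array, 3.30-fold higher at its only probe set. Ybx1, which encodes a cold shock RNA-binding protein and lies beyond Foxj3, read 4221.62 (Foxj3 KO) and 1993.66 (WT), 2.12-fold higher, and at 1438064_at 67.92 (Foxj3 KO) and 40.94 (WT), a log2 ratio of at least 0.53. With quantile scaling, loess scaling or the mean over probe sets the count of higher genes here was 1, and with the floor at the 20th percentile it was 3. Ccdc30, Guca2b, Rims3 and Hpcal4 were under the floor on the WT array, so their ratios are bounds. The nearest measured genes to Cap1 were under 2-fold by their brightest probe sets. Ppt1, a lysosomal thioesterase gene, read 253.00 (Foxj3 KO) and 186.65 (WT) at its brightest probe set (log2 ratio 0.44), and 212.21 (Foxj3 KO) and 96.72 (WT) at 1422468_at (1.13). Mfsd2a, a lipid transporter gene on the other side, read 75.55 (Foxj3 KO) and 74.24 (WT). The log2 ratio of 3.75 at Cap1 was not shared by the measured genes beside it.

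**Figure D4:**
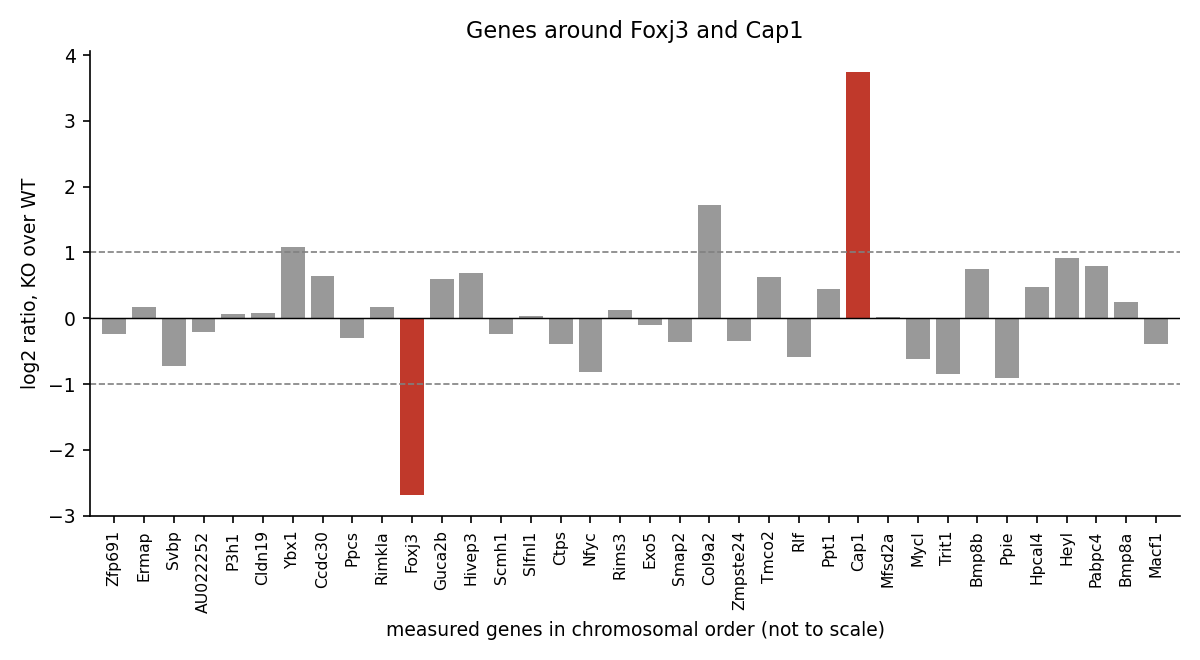
Log2 ratio (Foxj3 KO over WT) of the measured genes in chromosomal order around Foxj3 and Cap1 (dark bars), by the brightest probe set of each gene; distances are not to scale and dashed lines mark 2-fold. Cap1 stands at 3.75, Foxj3 at -2.68 (0.32 at its other measured probe set), and of the 34 other genes Col9a2 and Ybx1 pass 2-fold. The ratios of Ccdc30, Guca2b, Rims3 and Hpcal4, under the floor on the WT array, are bounds.

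With 2 arrays the pattern of a gene is a single ratio, and the 5 measured genes with the log2 ratio nearest to that of Cap1 were Disp2, Camk2b, Treml2, Tlx3 and Exosc6, within 0.44 of it. Disp2, Camk2b and Exosc6 read 2.41, 0.92 and 0.43 on the WT array, so that their ratios are bounds, and the other probe sets of Disp2 had log2 ratios of -0.12 and 0.02. Treml2 read 662.08 on the Foxj3 KO array and 62.33 on the WT array, and Tlx3 681.02 (Foxj3 KO) and 67.59 (WT). Camk2b, Tlx3 and Exosc6 had no second probe set to check them. Treml2 had 4 probe sets, and all but the one read here were under the floor on both arrays.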

How the data were processed

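For each array the deposited table gives a linear intensity for every probe set. Per the labels' protocols, biotin-labelled cRNA was prepared from total RNA. The algorithm and scaling behind the deposited intensity values are not given in the sources used here, so values were used as deposited. Names came from the platform annotation, updated by Entrez identifier in a RefSeq gene table: of 45037, 34945 had 1 symbol, 932 several and 9160 none listed. Values under the floor were set to it before log2, and each gene was read by its brightest probe set, the one whose log2 values averaged highest. Ratios are Foxj3 KO over WT, and a ratio with 1 array under the floor is a bound.

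The 9 members, the list of 86 other actin genes and the marker lists were chosen with earlier results of these data known. All probe sets of members and Foxj3 are named, and in each role group of the wider list up to 3 genes per direction past 2-fold (exceptions are marked). Gene symbols and order came from the RefSeq table. Calculations used python 3.11.15, pandas 2.3.3 and statsmodels 0.14.6 and were tested on simulated data. Alternatives tried were quantile, median and loess scaling, other floors, a pseudocount, the mean over probe sets, fewer probe sets and other thresholds.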

Additional observations from a re-analysis of the deposited data

How the results depend on the processing

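No paired analysis was possible because each group has 1 array, and leaving out an array leaves no comparison. The precision of every value is limited by the number of arrays. Cap1 had a log2 ratio between 3.02 (a pseudocount equal to the floor) and 3.89 over 9 alternatives. The log2 ratio was above 0 under every alternative that gave a value for Cfl1, Cfl2, Dstn, Pfn1, Pfn2 and Tmsb4x, and below 0 for Cap2. For Pfn2 it came to 0.0005 with the mean over probe sets, so its sign gives no direction. Dstn, Pfn1 and Tmsb4x have 1 probe set each. Alternatives that choose or average probe sets could not change their values, so their constant sign there is no check. Cfl2 came to 0.18 with the mean over probe sets, in which a probe set under the floor counts as 0. Without _s_at and _x_at probe sets, and likewise with only NM_ accessions (chosen after seeing the data), Cfl1 came to 1.19 and Gsn changed sign to 0.38.

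Of the 9 members, 1 was at least 2-fold higher, Cap1 alone, with quantile, median or loess scaling or a pseudocount, since Pfn1 lies on the line. At 1.5-fold 4 were higher and 1 lower, and at 3-fold 1 was higher. Of the other actin genes, 5 were lower with a pseudocount and with the mean over probe sets, 2 were higher and 2 lower with only NM_ accessions, 9 higher and 15 lower at 1.5-fold, and 0 higher and 5 lower at 3-fold. Around Foxj3 and Cap1, 1 gene was higher with quantile scaling, loess scaling, the mean over probe sets, only NM_ accessions or 3-fold. There 3 were higher with the floor at the 20th percentile, and at 1.5-fold 9 were higher and 6 lower. Over all genes, against 544 higher and 981 lower, the counts were 873 and 353 higher with the floor at the 20th and 60th percentile, 313 higher and 485 lower with a pseudocount, 330 and 490 with the mean over probe sets, 159 and 247 with only NM_ accessions, 1866 and 2811 at 1.5-fold, and 109 and 221 at 3-fold. Fewer genes were tested with only NM_ accessions. The causes of the other changes were not tested.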
